A study of Mus musculus with 6 samples.

Results

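The SLC25 carriers are the proteins that move metabolites across the inner mitochondrial membrane, and 44 of their genes were followed here in proximal tubules of Clcn5 knockout and wild type mice. The members are all genes whose only symbol in the platform annotation of the array begins with Slc25a, which makes 44 of 18193 named genes. Each was represented by its brightest probe set, and 37 of the 44 were bright enough to be tested. The samples were 3 arrays of knockout and 3 of wild type tubules, dissected in ice-cold salt from kidneys perfused under halothane. The knockout animals lacked Clcn5, the gene of the endosomal chloride/proton exchanger ClC-5, and no other treatment is given. The sources used here give no strain, age, sex or description of the targeted allele. Each array carried RNA pooled over mice, 3 to 4 by the series' design text and 7 by the records kept with the arrays. The same records describe the 3 pools of a group as biological replicates, and the p-values therefore measure the spread between pools of animals.

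SLC25 carriers share a fold of 3 similar repeats in the inner membrane, and each exchanges or imports a particular set of solutes. They bring ADP and phosphate to ATP synthase, fatty acids bound to carnitine to the oxidation enzymes, and carry citrate, malate, aspartate, glutamate and ornithine for gluconeogenesis, ammonia production and arginine metabolism. The proximal tubule is rich in mitochondria and draws most of its energy from fatty acid oxidation.

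Values are signals on a linear scale, given as mean ± SD of 3 arrays. Changes are log2 differences of knockout minus wild type from a limma fit across 11620 tested genes, with p-values adjusted over all of these genes. A gene was tested if its mean log2 signal corresponded to at least 41.9, the median of the array. Fluidics station 2 washed knockout array 3 and wild type array 2, and station 1 the other 4 arrays. Knockout array 3 also had another solution lot and the highest median signal, 48.8 against 40.9 to 45.3. Clcn5 itself read 352, 322 and 269 on the knockout arrays and 1010, 709 and 1030 on the wild type arrays.

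Summed over 12 markers, the signals of S1 and S2 segment genes overlapped between the groups, at 40100 to 42200 in knockout and 39500 to 44500 in wild type. The 10 markers of the S3 segment summed to 17800 to 18700 in knockout and 15900 to 17000 in wild type. Other cell types were present, and the marker sums of some were higher on every knockout array. The 13 leukocyte markers summed to 5510 to 5880 against 3870 to 3960, and 6 podocyte markers to 1450 to 1680 against 1140 to 1180. The 7 markers of the thick ascending limb summed to 14000 to 15500 against 11900 to 12400, and 5 of the distal convoluted tubule to 9020 to 9630 against 7350 to 8320. Of the latter 5, 4 rose past the threshold, with Calb1 the brightest at 5300 ± 243 against 3920 ± 150. Slc12a3 was at −0.12 with overlapping groups. The 9 markers of fibroblasts and smooth muscle, 6 of them above the filter, summed to 1170 to 1230 against 1050 to 1110. Acta2 made the largest part, at 585 ± 18.2 against 517 ± 29.4. Of the 6, 5 were above 0 and Dcn was at −0.26, lower on every knockout array. The 4 erythroid markers summed to 423 to 444 against 283 to 316. Only Slc4a1 of these, also an intercalated cell gene, was above the filter. It made most of that sum, at 382 ± 19.5 against 256 ± 25.7. Sums of 9 collecting duct and 8 endothelial markers overlapped between the groups, at 3960 to 4230 against 4150 to 4500 and at 2240 to 2470 against 2250 to 2320. Within the collecting duct list, the principal cell genes Aqp3 and Aqp2 fell (−0.53 and −0.49, limma adjusted p = 0.00179 and 0.0485), and the intercalated cell genes Slc4a1 and Slc26a4 rose (0.58 and 0.27, adjusted p = 0.00293 and 0.023). Principal cell genes did not all fall, as Scnn1g was at 0.28 and higher on every knockout array. Scnn1b, Avpr2 and Fxyd4 were at −0.03, −0.06 and −0.20, with Fxyd4 lower on every knockout array. The intercalated cell gene Foxi1 was at 0.24 with overlapping groups. Like Scnn1g, none of these passed the threshold. Carriers are expressed in all of these cells, so fewer cells of a type and less RNA per cell cannot be told apart, and the part of these shifts in the carrier results was not tested.

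Among the 37 tested carriers, 4 fell and 1 rose in the knockout tubules. Slc25a20, the carnitine-acylcarnitine carrier, fell most, 2.02-fold. Slc25a34, a carrier with no settled substrate, was 1.61-fold lower, Slc25a42, a coenzyme A carrier, 1.27-fold lower and Slc25a4, an ADP/ATP carrier, 1.22-fold lower. Slc25a46, an outer membrane member of the family that takes part in mitochondrial fusion and fission, was 1.22-fold higher. The 5 changed carriers are 13.5% of those tested, beside 6.48% of all tested genes, and in each direction 3.24% of all genes passed. The groups did not overlap in 9 carriers, 24.3%, against 25.2% of all tested genes, which is near the background. The median change of the carriers was −0.02, with 15 above and 22 below 0, and that of all tested genes was 0.01.

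**Figure D1:**
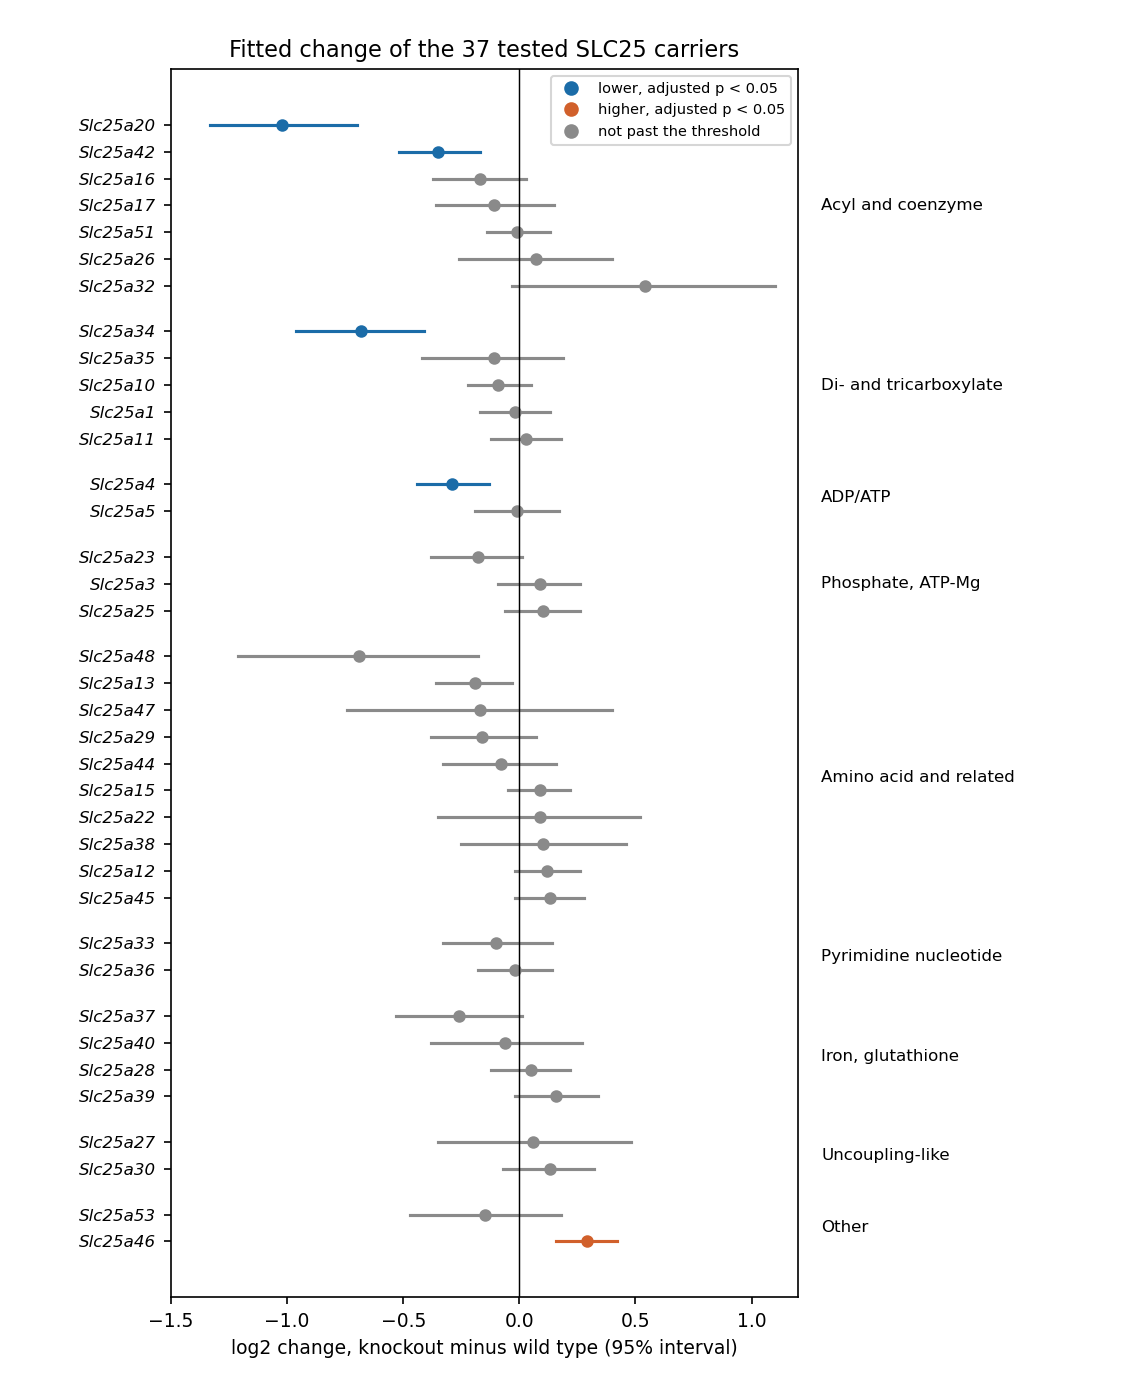
Log2 change of each of the 37 tested carriers, knockout minus wild type, with its 95% interval from the limma fit, grouped by what the carriers transport. Blue marks the 4 carriers that fell and orange the 1 that rose at an adjusted p under 0.05, and most of the others lie close to 0.

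The carriers of acyl groups and coenzymes held the largest change. Slc25a20 brings acylcarnitines into the matrix in exchange for free carnitine, a step that long-chain fatty acids must pass before oxidation. Its probe set 1423108_at read 442, 410 and 289 on the knockout arrays and 787, 673 and 819 on the wild type arrays. Every knockout value lay below every wild type value, and knockout array 3 was the lowest. The means were 380 ± 80.8 and 760 ± 76.4, a 2.02-fold drop (log2 change −1.02, SE 0.14, 95% interval −1.33 to −0.70, limma adjusted p = 0.0014). The second probe set, 1423109_s_at, read 264, 270 and 245 in knockout and 398, 405 and 414 in wild type. It was also lower on every knockout array, by a smaller log2 difference of −0.65. The log2 difference was −0.91 on station 1 and −1.22 on station 2, and leaving out any array kept it past the threshold, with adjusted p-values up to 0.0103.

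Slc25a42, which exchanges coenzyme A for nucleotides, read 938, 805 and 777 in knockout and 1060, 1010 and 1130 in wild type. The groups did not overlap, and the fall was modest (840 ± 86.1 against 1060 ± 57.9, log2 change −0.35, SE 0.08, limma adjusted p = 0.0289). It was −0.33 on station 1 and −0.38 on station 2. The other probe set of Slc25a42, 1443637_at, lay under the filter and was at 1.16 with overlapping groups, from signals of 3.88 to 41. The call held without knockout array 1 and ended without each of the other 5 arrays, with adjusted p-values up to 0.118. The other 5 tested members of this group did not pass the threshold. They were Slc25a16, at −0.17, the peroxisomal cofactor carrier Slc25a17, at −0.11, and the S-adenosylmethionine carrier Slc25a26, at 0.07. The NAD carrier Slc25a51 was at −0.01, with a 95% interval of −0.14 to 0.13, although its dimmer probe sets 1454712_at and 1427425_at were at 0.13 and 0.44. Slc25a32, the folate and FAD carrier, had the highest estimate of the 37 tested carriers, 0.54, from dim signals of 46.7, 56.3 and 52.1 against 46.7, 33.6 and 28.6 (adjusted p = 0.284). Its other probe set above the filter was at −0.19.

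**Figure D2:**
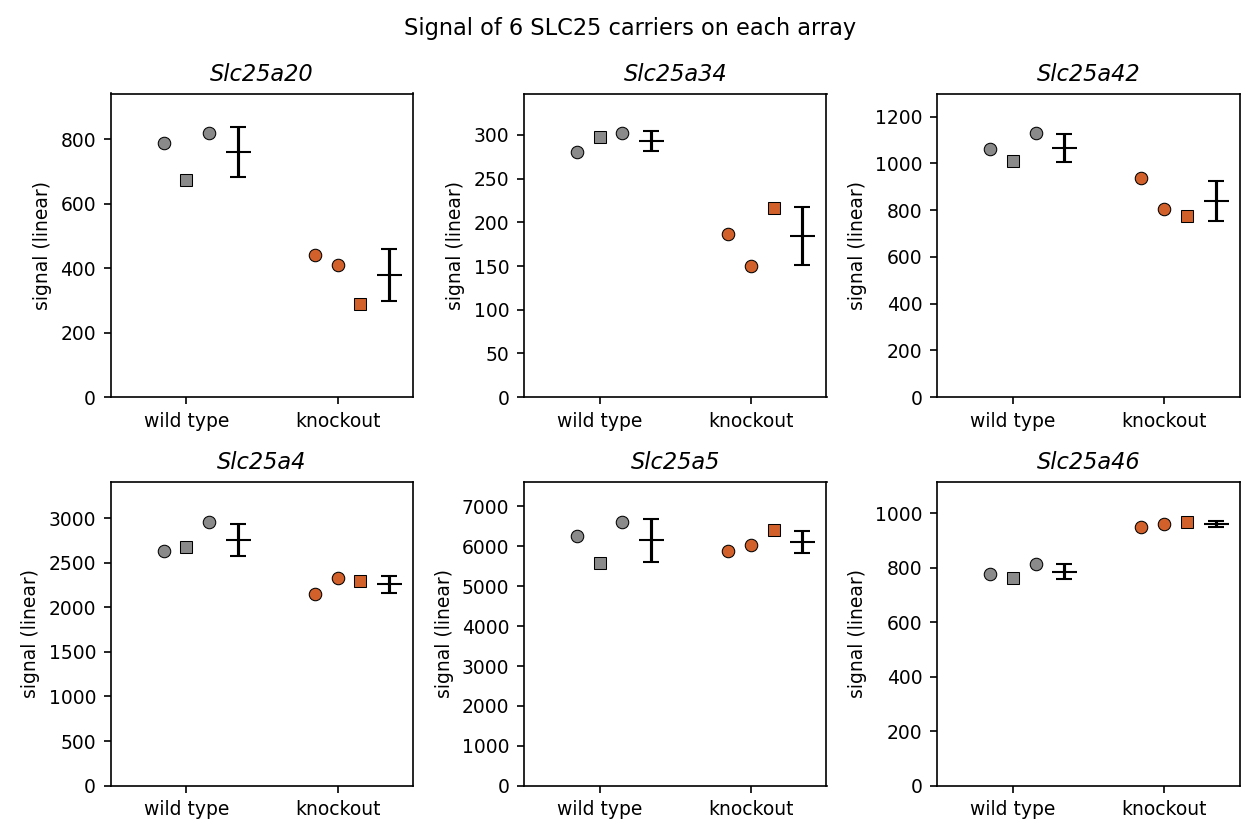
Linear signal of the 5 changed carriers and of Slc25a5 on each array, with circles for station 1, squares for station 2 and bars for mean ± SD of 3 arrays. Slc25a20, Slc25a34, Slc25a42 and Slc25a4 lie lower on every knockout array and Slc25a46 higher, while the groups overlap for Slc25a5.

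Of the carriers of di- and tricarboxylates, 1 of 5 tested members changed, a single gene that makes 20% beside 6.48% of all tested genes. Slc25a34, placed in this group for its sequence, has only probe set 1455506_at, which read 187, 150 and 216 in knockout and 280, 297 and 302 in wild type. The highest knockout value was well below the lowest wild type value (184 ± 33.3 against 293 ± 11.1, log2 change −0.68, SE 0.13, limma adjusted p = 0.00749). The difference was −0.80 on station 1 and −0.46 on station 2, and the call held without any of the 6 arrays. The citrate carrier Slc25a1, the dicarboxylate carrier Slc25a10 and the oxoglutarate carrier Slc25a11 were bright, with changes of −0.02, −0.09 and 0.03 and SEs of 0.07, 0.06 and 0.07. Slc25a35, a close relative of Slc25a34, was at −0.11 (adjusted p = 0.722).

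The ADP/ATP carriers exchange cytosolic ADP for ATP made in the matrix, and the 2 tested members differed in their values. Slc25a4, the form that predominates in heart and muscle, read 2150, 2330 and 2290 in knockout and 2630, 2670 and 2960 in wild type. The groups did not overlap (2260 ± 92.0 against 2750 ± 182, log2 change −0.29, SE 0.07, limma adjusted p = 0.0337). Its other bright probe sets, 1434897_a_at and 1424562_a_at, were at −0.34 and −0.29, and neither had overlapping groups. The call ended when any of the 6 arrays was left out, with adjusted p-values up to 0.11 and log2 changes of −0.32 to −0.23, and the difference was −0.32 on station 1 and −0.22 on station 2. Slc25a5, a widely expressed form, read 5880, 6040 and 6410 in knockout and 6260, 5570 and 6620 in wild type. These groups overlapped throughout, with a change of −0.01 and a 95% interval of −0.19 to 0.17. The difference between the changes of Slc25a4 and Slc25a5 was not tested. The 8 probe sets of Slc25a5 gave unlike values: 3 bright ones were at 0.04, 0.08 and 0.05, and 4 dimmer ones at −0.16, −0.24, −0.43 and −0.32. Of these, 1438922_x_at and 1438545_at were lower on every knockout array. The testis form Slc25a31 gave signals of 0.856 to 7.16 and was not tested.

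**Figure D3:**
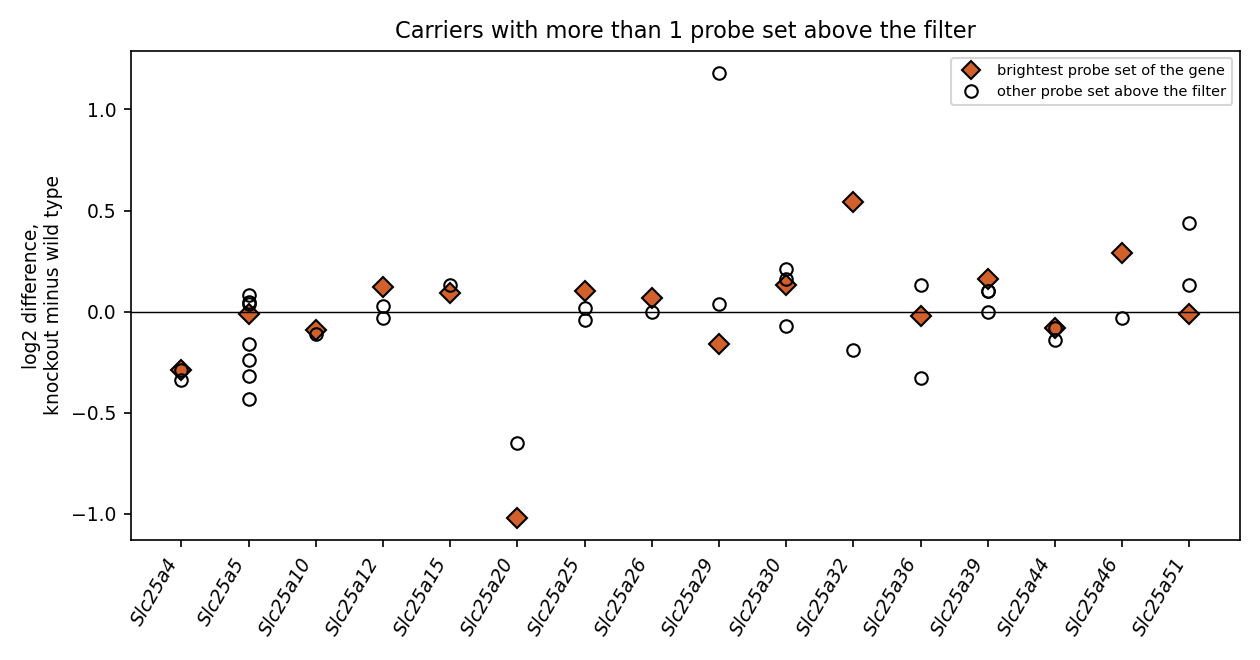
Log2 difference of each probe set above the filter, knockout minus wild type, for the 16 carriers that have more than 1. Diamonds mark the brightest probe set of each gene and open circles the others, which lie together for Slc25a4 and Slc25a10 and apart for Slc25a5, Slc25a29, Slc25a32 and Slc25a46.

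Carriers of phosphate and of ATP-Mg, which set the phosphate and adenine nucleotide content of the matrix, held no member past the threshold among 3 tested, and none at an unadjusted p under 0.05 in limma. The phosphate carrier Slc25a3 read 6440, 6900 and 7060 in knockout and 6410, 5910 and 6930 in wild type, with overlapping groups and a change of 0.09 (95% interval −0.09 to 0.26). The calcium-regulated ATP-Mg carriers Slc25a23 and Slc25a25 were at −0.18 and 0.10. Slc25a24, of the same kind, lay just under the filter. Its signals of 41.4, 47.9 and 45.7 in knockout were all above those of 33.3, 36.9 and 31.5 in wild type. In a fit without the filter its log2 change was 0.41 (limma adjusted p = 0.509). Slc25a41 gave signals of 2.98 to 38.0 and was not tested.

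None of the 10 tested carriers of amino acids and related compounds passed the threshold, and 2 had an unadjusted p under 0.05 in limma, near the 19.4% of all tested genes that did. The 2 were Slc25a13 and Slc25a48. Slc25a13 is citrin, an aspartate-glutamate carrier of the malate-aspartate shuttle, and its paralog Slc25a12 is aralar. Slc25a13 read 487, 536 and 481 in knockout and 611, 559 and 551 in wild type, lower on every knockout array (log2 change −0.19, adjusted p = 0.171). Slc25a12 read 693, 679 and 631 against 614, 615 and 612, higher on every knockout array (0.12, adjusted p = 0.346). The groups thus did not overlap in either paralog, in opposite directions, and neither change passed the threshold.

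Slc25a48, a choline carrier, read 124, 72.7 and 72.0 in knockout and 164, 107 and 157 in wild type. Its groups overlapped through knockout array 1. The log2 change was −0.69 (SE 0.23, limma adjusted p = 0.126), and without knockout array 1 it was −0.95 with an adjusted p of 0.0211. The ornithine carrier Slc25a15 and Slc25a45 were higher on every knockout array by small amounts, 0.09 (adjusted p = 0.494) and 0.13 (adjusted p = 0.336). Slc25a22, a glutamate carrier, and Slc25a38, which imports glycine for heme synthesis, were at 0.09 and 0.10 with SEs of 0.19 and 0.16. The carrier of basic amino acids Slc25a29, the carrier of branched-chain amino acids Slc25a44 and Slc25a47, described mainly in liver, were at −0.16, −0.08 and −0.17. Another probe set of Slc25a29, 1423981_x_at, was at 1.18 from signals of 62.8 to 126 in knockout and 27.7 to 63.4 in wild type. Slc25a2 and Slc25a18 had signals up to 33.3 and 43.5 and were not tested.

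The pyrimidine nucleotide carriers Slc25a33 and Slc25a36 were at −0.10 and −0.02, and neither passed limma at an unadjusted p under 0.05. Among 4 carriers of iron and glutathione none passed, and none had an unadjusted p under 0.05 in limma. Slc25a37 and Slc25a28, mitoferrins 1 and 2, import iron. Slc25a37 read 251, 209 and 180 in knockout and 246, 239 and 274 in wild type, with overlapping groups (log2 change −0.26, adjusted p = 0.285). Slc25a28 was at 0.05, and the glutathione carriers Slc25a39 and Slc25a40 at 0.16 and −0.06. The 5 probe sets of Slc25a39 included 1440118_at, under the filter, which was lower on every knockout array at −0.96 from signals of 13.5 to 33.3.

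Of the carriers related to uncoupling proteins, Slc25a30, the kidney mitochondrial carrier protein, read 1750, 1750 and 1890 in knockout and 1700, 1430 and 1830 in wild type, with overlapping groups (log2 change 0.13, adjusted p = 0.494). Its probe sets 1420835_at and 1450018_s_at were higher on every knockout array, at 0.16 and 0.21. Slc25a27, or UCP4, was dim and at 0.06, and Slc25a14, or UCP5, ranged from 6.37 to 59.5 and was not tested. The neighbours of the family that carry other symbols gave no call among 3 tested, and none at an unadjusted p under 0.05 in limma: Mtch1 and Mtch2, outer membrane proteins, at 0.12 and −0.06, and Ucp3 at 0.20.

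Slc25a46 was the only carrier that rose. Probe set 1418134_at read 949, 963 and 970 in knockout and 779, 763 and 816 in wild type. The groups did not overlap and the knockout arrays lay close together (960 ± 10.8 against 786 ± 27.0, log2 change 0.29, SE 0.06, limma adjusted p = 0.0133). The other probe set, 1448970_at, read 612, 596 and 577 against 613, 619 and 592 and was at −0.03, with overlapping groups. With both averaged the log2 change was 0.13 (limma adjusted p = 0.211). The difference was 0.26 on station 1 and 0.35 on station 2. The call ended without wild type array 1 (adjusted p = 0.0708) or wild type array 2 (adjusted p = 0.0645). Slc25a53 was at −0.15, and Slc25a54 gave signals of 2.79 to 29.4 and was not tested.

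The sequences before the start sites of the 4 carriers that fell are shown because these members moved the same way. Each is the 250 bases upstream of the RefSeq start in GRCm38.p6, written 5′ to 3′ on the gene's strand. They lie at chr9:108661886-108662135 (+) for Slc25a20, chr4:141623835-141624084 (−) for Slc25a34, chr8:70212282-70212531 (−) for Slc25a42 and chr8:46211063-46211312 (−) for Slc25a4. Capitals mark matches, on either strand, to the GC box GGGCGG, the CCAAT box CCAAT and the core site of nuclear receptors AGGTCA.
Slc25a20: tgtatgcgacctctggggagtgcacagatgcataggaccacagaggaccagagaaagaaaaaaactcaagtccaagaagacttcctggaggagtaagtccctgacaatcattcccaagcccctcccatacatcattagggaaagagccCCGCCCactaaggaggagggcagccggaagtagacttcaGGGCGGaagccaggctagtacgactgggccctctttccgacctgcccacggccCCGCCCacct
Slc25a34: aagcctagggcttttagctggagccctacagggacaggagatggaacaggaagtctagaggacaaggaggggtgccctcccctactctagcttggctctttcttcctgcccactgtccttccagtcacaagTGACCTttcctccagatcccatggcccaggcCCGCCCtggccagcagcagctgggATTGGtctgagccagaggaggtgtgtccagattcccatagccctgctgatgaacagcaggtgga
Slc25a42: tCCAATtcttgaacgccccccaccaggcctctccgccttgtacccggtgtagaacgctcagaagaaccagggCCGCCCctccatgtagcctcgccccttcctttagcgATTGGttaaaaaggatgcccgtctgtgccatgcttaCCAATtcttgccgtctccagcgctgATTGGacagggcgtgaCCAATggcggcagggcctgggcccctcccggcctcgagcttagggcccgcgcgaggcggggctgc
Slc25a4: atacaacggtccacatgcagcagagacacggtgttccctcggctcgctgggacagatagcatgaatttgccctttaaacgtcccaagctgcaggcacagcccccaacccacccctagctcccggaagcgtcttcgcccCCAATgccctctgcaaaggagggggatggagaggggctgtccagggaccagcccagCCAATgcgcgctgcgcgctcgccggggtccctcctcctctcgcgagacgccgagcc

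No motif was matched in all 4 windows. The GC box was matched in those of Slc25a20, Slc25a34 and Slc25a42, and the CCAAT box in those of Slc25a34, Slc25a42 and Slc25a4. The core site AGGTCA was matched only in that of Slc25a34. RefSeq gave 43 such windows for 34 of the carriers, since some genes have several starts. The GC box was matched in 74.4% of these windows and in 32.7% of all 32851 windows of the same length, and the CCAAT box in 46.5% and 33.8%. AGGTCA was matched in 9.3% and 14.0%. The PPAR response element as AGGTCANAGGTCA and the ERR element as TCAAGGTCA, which both contain AGGTCA, were matched in 0.0335% and 0.387% of all windows and in no carrier window. The absence of a match says only that these letters are not in the window.

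The carriers were then set beside other mitochondrial genes, in lists chosen with earlier results of these data known. Enzymes on either side of the Slc25a20 step were mostly below 0, with 4 of 13 tested genes of carnitine conjugation and fatty acid oxidation lower and none higher, or 30.8% beside 3.24% of all tested genes that were lower. Their median change was −0.22, with 11 of the 13 below 0 and 2 above. Cpt1a was at −0.15 and did not pass the threshold (limma adjusted p = 0.24). Acadm went the other way, at 0.15 and higher on every knockout array (adjusted p = 0.249), and Etfa was at 0.04. Cpt2, which reforms acyl-CoA from the acylcarnitine that Slc25a20 delivers, fell 1.46-fold (985 ± 30.2 against 1440 ± 119, limma adjusted p = 0.00095). Crot, the peroxisomal carnitine octanoyltransferase, fell 1.35-fold (1230 ± 130 against 1650 ± 61.9, adjusted p = 0.00871), a call that ended without an intensity trend (adjusted p = 0.0738). Acadl, an acyl-CoA dehydrogenase, and Etfdh, which passes its electrons to ubiquinone, fell 1.29-fold and 1.18-fold. The call of Acadl ended without wild type array 1 or 3, with adjusted p-values up to 0.0759, and that of Etfdh without each array, up to 0.121. Both calls also ended without an intensity trend and within station 1, and that of Etfdh with the replicate block. The adjusted p-values there were up to 0.106 for Acadl and 0.133 for Etfdh. The count was 2 to 4 when an array was left out.

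Among 17 tested enzymes that use the carriers' other substrates, 3 fell and 1 rose, or 23.5% beside 6.48% of all tested genes. Ass1 and Asl, which make arginine from citrulline and aspartate, fell 1.79-fold (251 ± 45.0 against 446 ± 41.7, limma adjusted p = 0.0024) and 1.44-fold (1460 ± 143 against 2100 ± 48.0, adjusted p = 0.00157). Oat, the ornithine aminotransferase of the matrix, fell 1.25-fold, a call that ended without wild type array 1 and also without wild type array 3, at adjusted p-values up to 0.0587. The Oat call also ended without an intensity trend and within station 1, at adjusted p-values up to 0.081. Slc25a15, the carrier for ornithine and citrulline, did not pass the threshold, with an interval of −0.05 to 0.22. Acly, which splits citrate that Slc25a1 exports, rose 1.18-fold, a call that ended without any of the arrays (adjusted p up to 0.15). It also ended with no filter, without an intensity trend, with array weights, with station or replicate as a block, and within station 1 (adjusted p up to 0.211).

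Of 16 other mitochondrial transport genes, 1 fell and none rose, which at 6.25% is near the 6.48% of all tested genes. It was Abcb10, an ABC transporter of the inner membrane known from mouse erythroid cells to bind Slc25a37, at 167 ± 8.17 against 266 ± 8.87, a 1.60-fold fall (limma adjusted p = 0.000919). Of 4 erythroid markers on the array only Slc4a1, also an intercalated cell gene, was above the filter, while the mean signals of Hba-a1, Alas2 and Epb42 were at most 36.8. The next smallest p-values belonged to the outer membrane channel gene Vdac2, at 0.20, Sfxn5, at 0.23, and the calcium uniporter gene Mcu, at −0.22 (adjusted p = 0.178, 0.194 and 0.21). None of 14 genes for the import of carriers into mitochondria passed limma's threshold, while 7 had an unadjusted p under 0.05, a threshold that 19.4% of all tested genes met. Timm29, of the translocase that inserts carriers, was highest, at 0.45 (adjusted p = 0.0827), and the carrier receptor gene Tomm70a lowest, at −0.36 (adjusted p = 0.154).

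The nuclear genes of the respiratory chain and ATP synthase stayed within a narrow range. Beside 6.48% of all tested genes past limma's threshold and 19.4% at an unadjusted p under 0.05, none of the 38 tested subunits met either. Their changes ran from −0.13 for Ndufa10 to 0.12, with a median of 0.05. Of 15 genes for mitochondrial biogenesis and its nuclear receptors, 1 rose and none fell, which at 6.67% is near the share of all tested genes. It was Ppard, at 333 ± 28.4 against 83.1 ± 21.8, and the gene of its relative PPARα, Ppara, was at −0.53 (limma adjusted p = 0.0573).

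**Figure D4:**
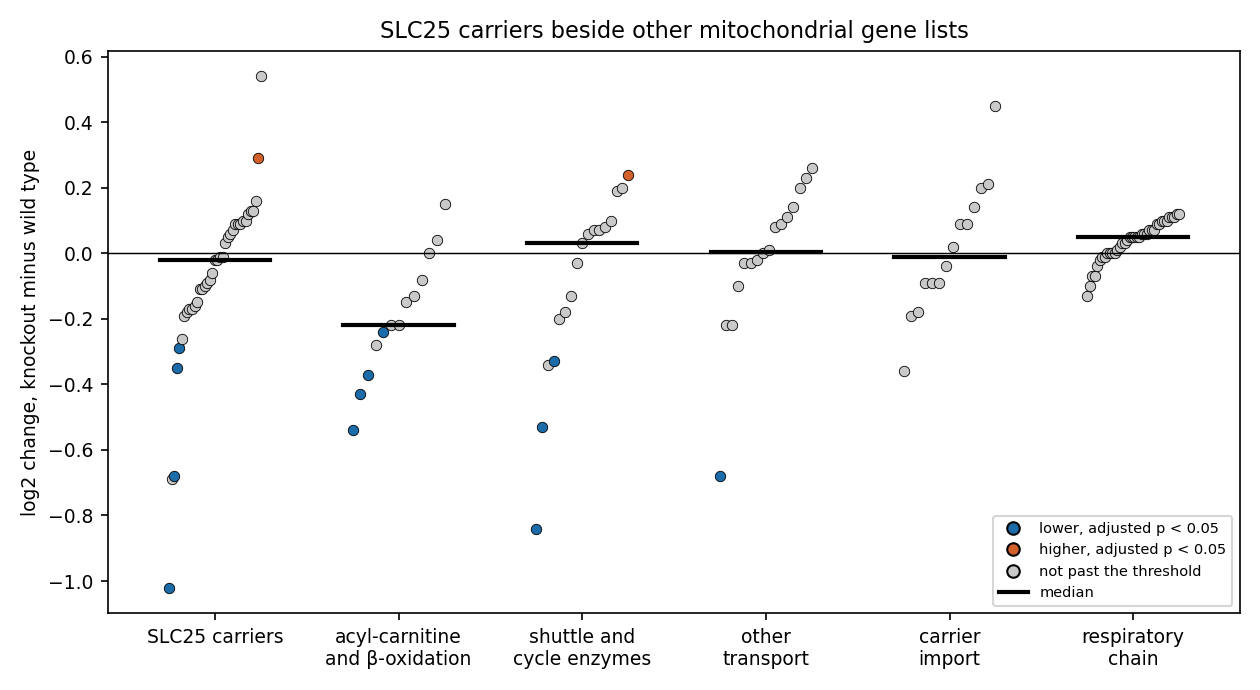
Log2 change of each tested gene, knockout minus wild type, for the SLC25 carriers and 5 other mitochondrial lists, with genes in order of their change within a list and black bars for the medians. The acyl-carnitine and β-oxidation list lies mostly below 0 with a median of −0.22, and the respiratory chain stays between −0.13 and 0.12.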

How the data were processed

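The authors deposited linear signal intensities, and the submitters' processing notes name GCOS 1.4 and MAS5 for them. The intensities have a 2% trimmed mean of 150 on every array. Per the labels' protocols, biotin-labelled RNA was made in 1 round of amplification primed with oligo dT. Detection calls were not used here, so dim signals cannot be told from background, and the number of arrays limits the precision (median SE of a tested carrier 0.089, of all genes 0.115).

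Signals of 45037 probe sets that are not controls were turned to log2 without a pseudocount. Of these, 34945 carry 1 gene symbol, 932 several and 9160 none. Those with several symbols were left out, and 1 of the 932 names Slc25a37 together with another gene. Probe sets at or above the median mean signal were kept (22519), and each gene was represented by the brightest, which left 11620 genes. The groups were compared in limma 3.58.1 (R 4.3.3), using lmFit followed by eBayes with the trend option. Tests were two-sided and were adjusted by Benjamini-Hochberg at 0.05. They used variances that eBayes shrinks across genes, with its prior degrees of freedom added to the 4 residual ones. In simulated data of 11620 genes for this comparison, 200 genes were changed. Of those changed by 0.5 on the log2 scale 43.7% were recovered, 83% at 1 and 98% at 2. The noise was drawn from the variance prior of the fit, without station or lot effects. In the real data 753 genes passed, so recovery there may differ.

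The members and lists were chosen with earlier results of these data known. Named were all carriers, the related family genes, Clcn5, and from each other mitochondrial list up to 4 genes with the smallest p. Cpt1a, Acadm and Etfa were added after their values were seen. The deviations of same-numbered arrays from their group means correlated at 0.02, 0.03 and −0.03 across genes. No label says that a number marks a shared litter, batch or day. Such low values cannot exclude a pairing, since knockout array 3 and wild type array 2, which shared station 2, correlated at only 0.04. Leaving out an array kept the probe sets chosen with all 6. Promoter windows were read with Biopython 1.88, and the 1493 overlapping windows of opposite strands were all reverse complements. Plots were made with matplotlib 3.10.9 in Python 3.11.15.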

Additional observations from a re-analysis of the deposited data

How the results depend on the processing

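The 37 tested carriers were refitted under 16 other settings, which gave 589 values. Slc25a20 and Slc25a34 passed the threshold in the same direction under all 16. Of the calls, 22 were lost, all of Slc25a4, Slc25a42 and Slc25a46, and 2 were gained, both of Slc25a48. The count of lower carriers was 2 with no filter on dim probe sets, 2 without an intensity trend and 2 within station 1, and 2 to 4 when an array was left out. It stood at 2 without knockout array 2 or 3 or any of the wild type arrays. The count of higher carriers was 0 with averaged probe sets, 0 without an intensity trend and 0 within station 1, and 0 to 1 when an array was left out. Over all genes the count was 487 without an intensity trend, 458 within station 1 and 503 to 733 when an array was left out. Fewer arrays enter these last fits, and the cause of the other moves was not tested. The replicate number as a block, which no label gives as a pairing of the pools, gave 765 genes and 5 lower carriers, with Slc25a48 at an adjusted p of 0.0373.

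Signs turned in 23 values, none of them past the threshold. With averaged probe sets Slc25a29 was at 0.36 and Slc25a51 at 0.19, and within station 1 Slc25a28 was at −0.02, Slc25a30 at −0.01 and Slc25a40 at 0.01. When an array was left out the range was −0.07 to 0.02 for Slc25a1, −0.08 to 0.05 for Slc25a5, −0.02 to 0.07 for Slc25a11, −0.15 to 0.22 for Slc25a22 and −0.02 to 0.19 for Slc25a26. It was −0.01 to 0.15 for Slc25a27, −0.09 to 0.02 for Slc25a36, −0.11 to 0.29 for Slc25a38, −0.18 to 0.03 for Slc25a40, −0.04 to 0.01 for Slc25a51 and −0.26 to 0.01 for Slc25a53. The settings for the other mitochondrial lists were added after their values were seen: the count of lower acyl-carnitine genes was 1 to 6 under the settings that kept all arrays or 1 station, and no respiratory chain gene passed under any. Dim probe sets limit what could be seen: the largest SE of a tested carrier was 0.26, for Slc25a32 and Slc25a47.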
